A study of Mus musculus with 17 samples.

Results

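The comparison set long-term haematopoietic stem cells (LT-HSCs) of CD41-knockout (CD41-KO) mice against those of wild-type (WT) mice at 12 months of age, with 3 arrays of each genotype. These 6 samples were chosen by their titles, out of 17 in the series, and the genes on the array were compared between them. The LT-HSCs were sorted from bone marrow as lineage-negative, Sca-1+, c-Kit+, CD48- and CD150+ cells, so all groups share that gate. Each array held amplified RNA of 1000 cells, sorted after pooling 4 to 5 mice. The labels give neither the targeted allele, nor the deleted part of the gene, nor strain or sex, and they do not say whether the 3 replicates of a group came from separate pools. The p-values therefore reflect just the spread among these arrays, which may be technical. Further arrays of the same gate at 2 months of age (3 WT, 2 CD41-KO) entered the same model and are used below to set the genotype difference at 12 months beside that of young mice.

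LT-HSCs are the rare bone marrow cells that can rebuild every blood lineage for the life of an animal, and they are held in a largely non-dividing state by their niche. CD41 is the integrin alpha-IIb chain. With the beta-3 chain it forms the fibrinogen receptor that lets platelets aggregate, and it also marks megakaryocytes, mast cells, early embryonic blood progenitors and some adult stem cells. The questions the design poses are which genes differ in level when middle-aged LT-HSCs lack CD41, and whether the difference is the same in young cells.

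Levels are log2 of the background-subtracted array signal relative to the array's 75th percentile, so 0 is the signal that 75% of spots lie below. A gene's level can be set against its own level on another array, not against the level of another gene. Differences are CD41-KO minus WT on the log2 scale, given with the standard error, and a gene was called higher or lower when its adjusted p (limma, Benjamini-Hochberg) was under 0.05 with the replicate number as a block. Of 33559 genes tested, 4595 were called higher (13.7%) and 5265 lower (15.7%). Most of these differences were small: 559 genes were called and differed at least 2-fold (1.67%), 263 of them higher and 296 lower. The levels of the 3 WT arrays did not overlap those of the 3 CD41-KO arrays for 8727 genes (26.0%). Without the block only 878 genes were called higher (2.62%) and 869 lower (2.59%), and all of these were also called with it. With the block, 12.7% of the 18110 genes named through RefSeq were called higher and 18.7% lower. These shares are the closer background for the gene lists below. The adjusted p without the block is given below as the "unblocked" adjusted p wherever it reached 0.05 for a gene called at 12 months. A gene is represented by its brightest probe: of 242 genes picked for naming, 60 had several probes, and for 37 of those every probe lay on the same side of 0. With 1 array left out at a time, 2735 to 3505 genes were called higher and 3297 to 4093 lower. The counts moved by more than 1.5 times without WT replicate 1 (2984 higher, 3404 lower), WT replicate 2 (2735 and 3423), WT replicate 3 (2983 and 3297) or CD41-KO replicate 1 (2960 higher). The small number of arrays thus limits the precision.

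**Figure D1:**
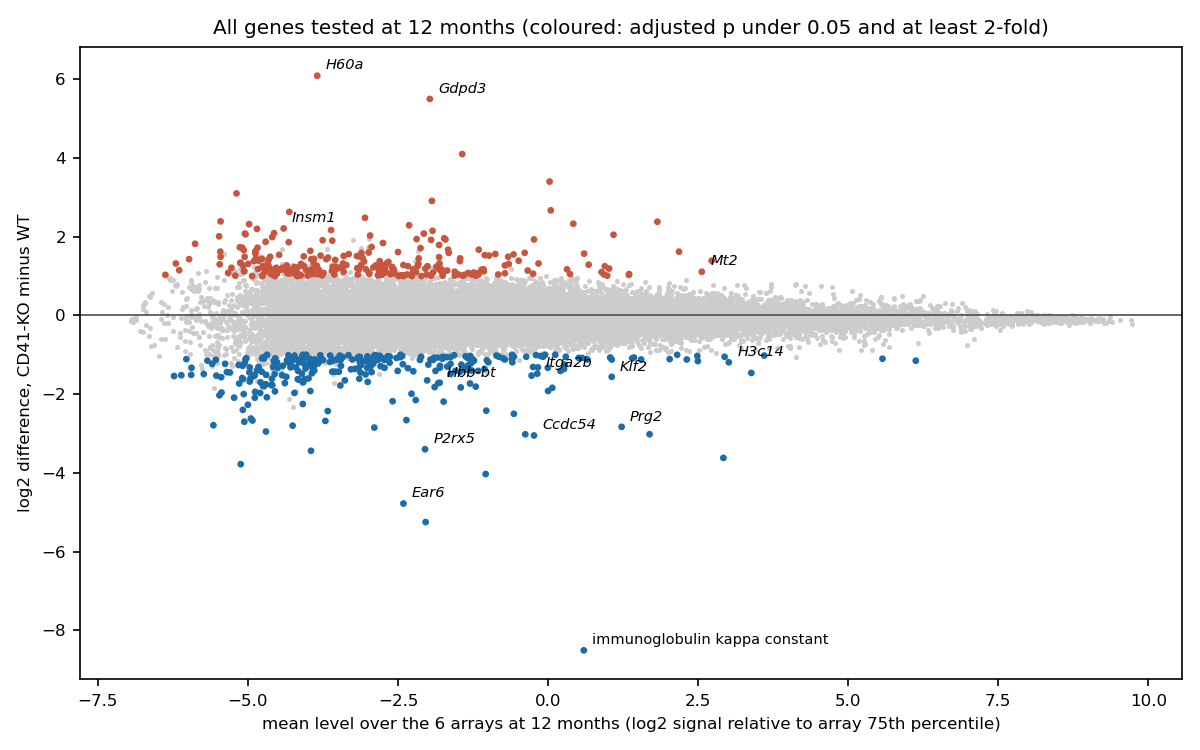
Each point is 1 of the 33559 genes tested, with its mean level over the 6 arrays at 12 months on the horizontal axis (log2 signal relative to the array 75th percentile) and the CD41-KO minus WT difference on the vertical axis (log2). Red and blue points are the 263 genes called higher and the 296 called lower that differed at least 2-fold, and the immunoglobulin kappa constant region feature lies lowest of all, at -8.51.

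The targeted gene, Itga2b, which encodes CD41, was lower in the CD41-KO arrays. Its level was 0.58, 0.42 and 0.67 in the WT arrays and -1.48, -0.64 and -0.64 in the CD41-KO arrays. All CD41-KO levels lay below all WT levels, yet the probe was still well above background on all 3. The difference was -1.48 ± 0.25 (n = 3 against 3, adjusted p = 0.00568), 2.79-fold, against -2.63 at 2 months. The difference between ages, 1.15, was not called (adjusted p = 0.0507). The probe that gave these values is shown because the remaining signal depends on where it lies. It covers 60 bases on the minus strand of chr11:102319453-102319661 (mm9), a span of 209 bases, so its bases are not contiguous in the genome, and whether the span overlaps the deleted part of the gene was not tested.
Itga2b probe: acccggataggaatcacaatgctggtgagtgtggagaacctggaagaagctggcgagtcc

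Within 1 Mb of Itga2b, 75 genes were tested and 13 called, and Itga2b was the one that differed at least 2-fold. This is a smaller share called than over all genes tested (13.7% higher and 15.7% lower). Itgb3, the beta-3 chain that pairs with CD41, stood at 2.65, 2.41 and 2.57 in WT and at 3.02, 2.60 and 3.07 in CD41-KO arrays. These ranges overlapped, and the difference of 0.35 ± 0.08 was called with the block (adjusted p = 0.0194) but not without it (unblocked adjusted p = 0.232). At 2 months Itgb3 was lower in CD41-KO cells, by -0.66, and the difference between ages was called (1.02, adjusted p = 0.00144). In a list of 13 genes of the CD41 receptor and the proteins that switch it on, 1 was called higher (7.69%) and 3 lower (23.1%). Without the block the counts were 0 and 1. The shares of RefSeq-named genes were 12.7% higher and 18.7% lower, so calls in this list were about as common as elsewhere. Besides Itga2b the lower ones were Apbb1ip, the adaptor RIAM that brings Rap1 to integrins (-0.43 ± 0.08, adjusted p = 0.00731, unblocked adjusted p = 0.0657), and Rap1b itself (-0.23 ± 0.06, adjusted p = 0.0272, unblocked adjusted p = 0.593). Of 21 integrin chains tested, Itga4, the alpha chain of VLA-4 that anchors stem cells in marrow, fell by 0.69 ± 0.07 (adjusted p = 0.000796). Itga6 was -0.33 ± 0.08 (adjusted p = 0.0176, unblocked adjusted p = 0.153), and Itga5, the fibronectin receptor chain, was 0.33 ± 0.07 (adjusted p = 0.0108, unblocked adjusted p = 0.109). The remaining 18 chains were not called, 1 of the 21 was called without the block, and the median difference was 0.06. The shares of integrin chains called, 4.76% higher and 9.52% lower, were below those of RefSeq-named genes.

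The largest difference of any feature was in an antibody gene. Immunoglobulins are made by B cells and plasma cells, joined from a heavy chain and a kappa or lambda light chain, and a stem cell has not yet rearranged these genes. A probe described as the kappa constant region stood at 4.91, 4.68 and 4.95 in the WT arrays and at -3.64, -3.50 and -3.82 in the CD41-KO arrays. The groups were far apart and tight: the difference was -8.51 ± 0.38 (adjusted p = 7.98e-05), which is 364-fold. Both 2-month groups were low as well, with means of -4.55 in WT and -4.33 in CD41-KO arrays, so the WT arrays at 12 months were the ones that stood high. The probe lies on the plus strand of chr6:70676692-70676751 (mm9), and its 60 bases are shown because no other feature separated the 2 groups as widely.
Immunoglobulin kappa constant region probe: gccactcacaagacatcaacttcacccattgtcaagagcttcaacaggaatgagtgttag

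Altogether 5 of the 10 lowest differences among all features belonged to immunoglobulin chains. A heavy chain complex feature at chr12:114498348-114498407 fell by 5.25 ± 0.21 (38.1-fold, adjusted p = 5.32e-05), and was well above background on 1 of 3 CD41-KO arrays. The constant region of the IgM heavy chain at chr12:114659630-114659689 stood at 1.07, 0.89 and 0.96 in WT against -3.30, -2.51 and -3.36 in CD41-KO arrays, a difference of -4.03 ± 0.24 (adjusted p = 0.000261). A light chain variable segment at chr6:68812259-68812318 (4.97, 4.55 and 4.67 against 1.28, 0.96 and 1.08) fell by 3.62 ± 0.06. In each of these the 2 groups did not overlap. A heavy chain variable segment at chr12:115076801-115076860 fell by 3.02 ± 0.06 (adjusted p = 1.16e-06). These features were chosen after their values were seen, and the family as a whole did not follow them. Of 119 immunoglobulin features tested, 15 were called lower and 27 higher, with 5 and 4 without the block. The median difference was 0.08, and the 5 features above were the ones called at least 2-fold lower. Over all genes tested 15.7% were called lower and 13.7% higher. The family's share lower was thus below that of all genes, and its share higher was above it.

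Jchain, the joining chain of secreted IgM and IgA, moved with them. It stood at -2.41, -2.54 and -2.41 in WT and at -4.27, -4.84 and -5.54 in CD41-KO arrays. The groups did not overlap, and Jchain fell by 2.43 ± 0.32 (5.40-fold, adjusted p = 0.00221), with the probe well above background on 2 of 3 CD41-KO arrays. The difference between ages was called (-1.95, adjusted p = 0.0181), but not without the block (unblocked adjusted p = 0.0518). Xbp1, a transcription factor of secretory cells that stem cells also express, fell by 0.70 ± 0.07 (adjusted p = 0.000789). Of 10 B cell markers tested, Ebf1 was lower (-0.47 ± 0.08, unblocked adjusted p = 0.179), and so was Cd74 (-0.26 ± 0.06, unblocked adjusted p = 0.162). Their summed signal, relative to the 75th percentile, was 92.7 to 98.7 in WT and 74 to 85.8 in CD41-KO arrays. In sorted bulk samples fewer cells of a type and less RNA per cell cannot be told apart, and the part of B-lineage cells in these differences was not tested.

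Eosinophil granule genes were the other group with large differences. Eosinophils kill parasites with cationic proteins stored in granules: major basic protein (Prg2 and Prg3), a peroxidase (Epx) and eosinophil-associated ribonucleases (the Ear family). Of 13 eosinophil genes tested, 6 were called lower (46.2%), 4 of them also without the block, and 1 higher, with a median difference of -0.30. Their summed signal was 23.2 to 24 in WT and 12.9 to 14.3 in CD41-KO arrays. The part of eosinophil-lineage cells in the gate was not tested.

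Prg2 stood at 2.71, 2.55 and 2.67 in WT and at -0.14, -0.32 and -0.11 in CD41-KO arrays. The 2 groups were separated by far more than the spread within either, and Prg2 fell by 2.83 ± 0.06 (7.12-fold, adjusted p = 2.71e-06). Epx stood at 0.52, 0.50 and 0.45 in WT and at -1.14, -0.76 and -1.22 in CD41-KO arrays, again without overlap, and fell by 1.53 ± 0.13 (adjusted p = 0.000591). Ear6 stood at -0.09, -0.03 and 0.08 in WT and at -5.20, -4.21 and -4.98 in CD41-KO arrays, where 1 of 3 was well above background, and fell by 4.78 ± 0.25 (27.5-fold, adjusted p = 0.000145). Ear2 stood at 0.76, 0.56 and 0.66 against -0.55, -0.79 and -0.68 and fell by 1.33 ± 0.08 (adjusted p = 0.000282). The WT arrays were the high ones for all of these genes. At 2 months the means were low in both genotypes: for Prg2 -0.76 in WT and -0.75 in CD41-KO arrays, and for Epx -1.11 and -1.10. For Prg2, Epx, Ear6 and Ear2 the genotype difference at 12 months differed from that at 2 months (-2.85, -1.48, -5.62 and -1.01, all called).

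The rest of the eosinophil list was less uniform. Prg3 (-0.71 ± 0.16, unblocked adjusted p = 0.283) and Il5ra, the receptor for the eosinophil growth factor IL-5 (-0.30 ± 0.07, unblocked adjusted p = 0.214), were called only with the block. Ear1 stood at 1.61, 1.32 and 1.21 in WT and at 1.52, 1.29 and 1.25 in CD41-KO arrays, fully overlapping, and was not called (-0.03, adjusted p = 0.727). Ear10 was not called either (-0.13, adjusted p = 0.174), and neither were Siglecf (-0.16), Ccr3 (0.14), Cebpe (-0.57) and Alox15 (0.44). Gfi1, a repressor used in granulocytes and in stem cells alike, was the member that rose (1.46 ± 0.18, adjusted p = 0.00182), from -3.54, -3.59 and -4.33 to -2.14, -2.57 and -2.36.

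The Ear genes are near copies of each other, so the sequences behind their values are shown. The probes of Ear2 and Ear6 share a run of 23 bases, starting at base 38 of 60 in the Ear2 probe and at base 23 in the Ear6 probe, so part of the signal of one may come from the other. No other pair of the 4 Ear probes shared a run of more than 7 bases.
Ear2 and Ear6 shared run: gctgaatagatcttttctaatta
Ear1 probe: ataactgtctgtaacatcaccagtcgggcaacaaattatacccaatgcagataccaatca
Prg2 probe: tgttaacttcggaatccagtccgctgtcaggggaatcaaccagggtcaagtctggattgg

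The promoters of the Ear genes resemble each other. In RefSeq sequence (GRCm38.p6, from 250 bases before the start to 50 after it), Ear1 and Ear2 were identical at 294 of 303 aligned positions (97.0%), and the pairs of Ear1, Ear2, Ear6 and Ear10 ranged from 79.6% to 97.0%. Ear1, which did not pass the test, and Ear2 and Ear6, which fell, are printed side by side. Capitals mark GATAA or its reverse complement TTATC, the core bound by GATA factors, and CACCC or GGGTG, the core bound by KLF factors. The motifs were searched on both strands and do not overlap each other. Ear1 and Ear2 each held 1 GATAA and 1 CACCC match, and Ear6 held 1 and 2. Of 32851 promoters of this length, 25.4% held GATAA and 57.5% held CACCC, so such matches are common and are given as a description.
Ear1 promoter, minus strand of chr14:43819590-43819889: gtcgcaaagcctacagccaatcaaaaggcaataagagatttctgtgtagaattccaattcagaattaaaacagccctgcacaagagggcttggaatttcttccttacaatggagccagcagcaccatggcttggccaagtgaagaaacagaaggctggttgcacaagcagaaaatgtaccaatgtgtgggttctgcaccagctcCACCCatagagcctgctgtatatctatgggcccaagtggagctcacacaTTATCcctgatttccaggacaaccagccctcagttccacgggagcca
Ear2 promoter, plus strand of chr14:44102404-44102703: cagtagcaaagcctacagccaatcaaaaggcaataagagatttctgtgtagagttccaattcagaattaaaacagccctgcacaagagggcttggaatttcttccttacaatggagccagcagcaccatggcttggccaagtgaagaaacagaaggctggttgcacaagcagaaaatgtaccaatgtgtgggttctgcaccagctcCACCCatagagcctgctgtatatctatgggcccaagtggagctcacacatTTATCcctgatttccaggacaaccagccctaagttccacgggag
Ear6 promoter, plus strand of chr14:51853518-51853817: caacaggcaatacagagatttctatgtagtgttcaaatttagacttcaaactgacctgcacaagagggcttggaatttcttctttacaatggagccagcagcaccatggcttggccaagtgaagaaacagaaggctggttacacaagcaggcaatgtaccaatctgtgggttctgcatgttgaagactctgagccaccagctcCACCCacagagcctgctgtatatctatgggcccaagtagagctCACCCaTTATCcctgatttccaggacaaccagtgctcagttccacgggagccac

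**Figure D2:**
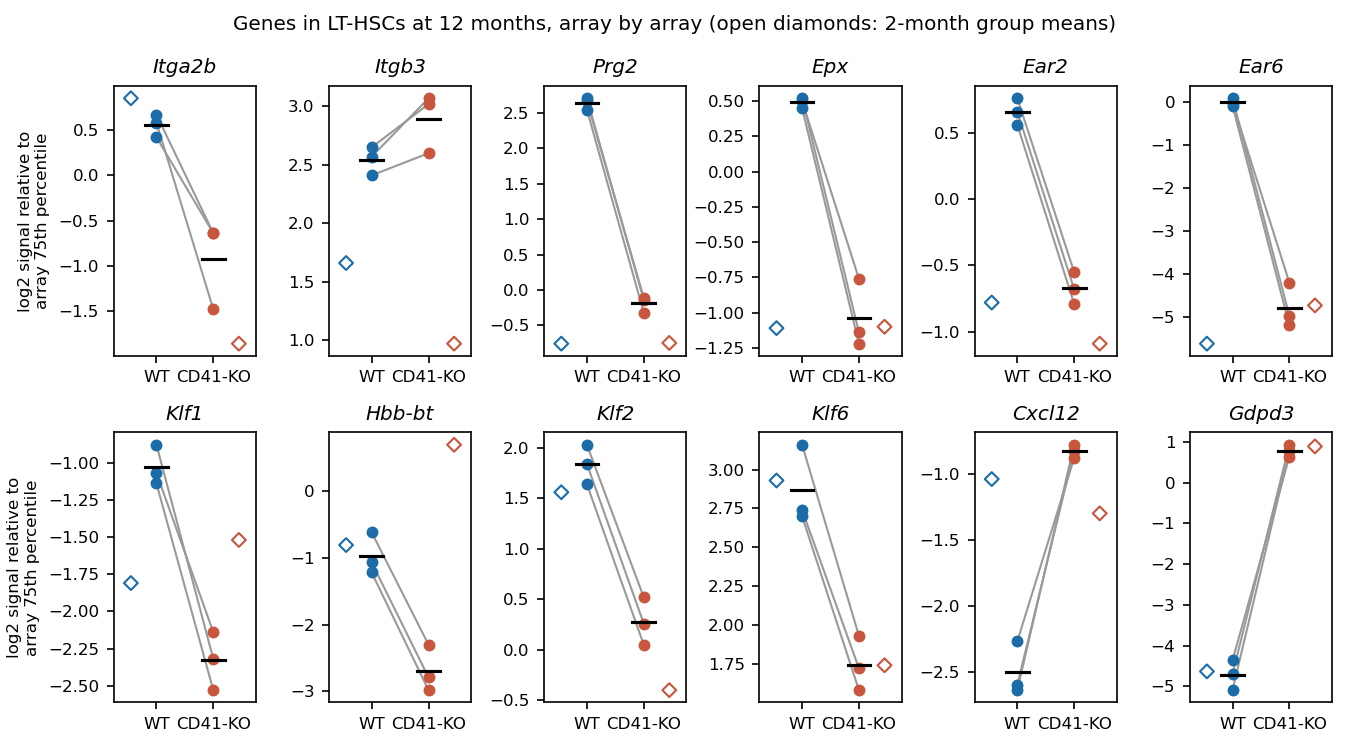
Each panel shows the level of 1 gene on the 3 WT and 3 CD41-KO arrays at 12 months (log2 signal relative to the array 75th percentile), with lines joining arrays of the same replicate number, bars at the group means and open diamonds at the group means at 2 months. Prg2, Epx, Ear2 and Ear6 are highest on the WT arrays at 12 months, while Klf2, Klf6 and Gdpd3 show a difference of the same direction at both ages.

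Erythroid genes moved in both directions. Klf1, the master activator of globin and red cell genes, stood at -0.88, -1.07 and -1.14 in WT and at -2.32, -2.14 and -2.53 in CD41-KO arrays. All CD41-KO levels lay below the WT levels, and Klf1 fell by 1.30 ± 0.11 (2.46-fold, adjusted p = 0.000628). Hbb-bt, an adult beta-globin, stood at -0.62, -1.22 and -1.07 against -2.30, -2.98 and -2.79 and fell by 1.72 ± 0.07 (adjusted p = 5.19e-05). The groups were again apart. Ahsp, which holds free alpha-globin soluble, fell 2.82-fold (adjusted p = 0.00085), from -2.18, -2.30 and -2.39 to -4.07, -3.72 and -3.58. Of 30 erythroid genes tested, 9 were called lower (30.0%) and 5 higher (16.7%), and 3 of each without the block. The shares of RefSeq-named genes were 18.7% lower and 12.7% higher. The lower ones also included Gata1 (-0.32 ± 0.07, unblocked adjusted p = 0.13), the GATA factor of red cells, megakaryocytes and eosinophils, and Hba-a2 (-0.63 ± 0.12, unblocked adjusted p = 0.44). Among the higher ones, Mt2, a metallothionein, rose by 1.11 ± 0.18 (from 2.18, 1.86 and 1.98 to 3.24, 2.97 and 3.12) and Trim10 rose by 0.60 ± 0.07. The summed signal of the erythroid markers was 107 to 114 in WT and 103 to 115 in CD41-KO arrays, so these ranges overlapped. Hbb-bt went the opposite way at 2 months (1.47) and the difference between ages was -3.18 (adjusted p = 8.72e-06). Of 11 heme synthesis genes, 2 were called lower with the block and 0 without it.

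The Hbb-bt promoter is printed because globin promoters carry the sites through which Klf1 is known to act. It held 1 GATAA and 3 CACCC matches (capitals), again as a description.
Hbb-bt promoter, minus strand of chr7:103813874-103814173 (GRCm38.p6): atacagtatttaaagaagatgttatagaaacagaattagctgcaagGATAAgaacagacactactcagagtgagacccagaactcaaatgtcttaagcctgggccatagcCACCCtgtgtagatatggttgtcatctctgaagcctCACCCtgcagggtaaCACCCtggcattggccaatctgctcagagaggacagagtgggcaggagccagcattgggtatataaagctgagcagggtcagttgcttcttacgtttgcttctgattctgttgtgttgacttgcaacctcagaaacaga

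The megakaryocyte and platelet programme, in which CD41 belongs, was more often lower than higher. Of 40 genes tested, 13 were called lower (32.5%) and 5 higher (12.5%), but 3 and 1 without the block, and the median difference was -0.10. Lower calls were also the more common ones among all RefSeq-named genes (18.7% lower, 12.7% higher). Thbs1, the platelet granule protein thrombospondin-1, stood at -2.62, -3.01 and -2.83 in WT and at -3.91, -4.66 and -4.17 in CD41-KO arrays. It fell by 1.43 ± 0.16 (2.69-fold, adjusted p = 0.00147), with no overlap. Fli1, an ETS factor that drives platelet genes, fell by 0.97 ± 0.12 (adjusted p = 0.0021), and Ptgs1, the cyclooxygenase that starts thromboxane synthesis, by 0.74 ± 0.07 (adjusted p = 0.000722). Both kept their call without the block. Pf4, a platelet chemokine, stood at 1.71, 1.39 and 1.49 against 1.21, 0.94 and 1.01, a difference of -0.48 ± 0.06 (adjusted p = 0.00159, unblocked adjusted p = 0.0794). Mmrn1 (-0.61 ± 0.05, unblocked adjusted p = 0.14) and Gp9, a subunit of the von Willebrand factor receptor (-0.56 ± 0.06, unblocked adjusted p = 0.101), were likewise lower. Von Willebrand factor itself, Vwf, which marks platelet-biased stem cells, stood at 3.06, 2.68 and 2.64 in WT and at 3.46, 3.11 and 3.25 in CD41-KO arrays. It was the other way round, at 0.48 ± 0.07 (adjusted p = 0.00264, unblocked adjusted p = 0.141). The serotonin transporter gene Slc6a4 rose by 0.68 ± 0.06 (adjusted p = 0.000535). Selp, the P-selectin of platelet granules, was not called (-0.30, adjusted p = 0.143), while at 2 months it was higher in CD41-KO cells (1.74). The summed signal of the list overlapped between genotypes, at 80.9 to 91.2 in WT and 81 to 90.8 in CD41-KO arrays.

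Krüppel-like factors, zinc finger proteins that bind CACCC elements, were lower as a family. Of 16 tested, 10 were called lower (62.5%), 7 of them also without the block, and 1 higher, and the median difference of -0.55 was the lowest of the 42 gene lists. Klf2, which holds lymphocytes and endothelium quiescent, stood at 2.03, 1.64 and 1.84 in WT and at 0.52, 0.05 and 0.26 in CD41-KO arrays. Klf6 stood at 3.16, 2.70 and 2.74 against 1.93, 1.58 and 1.72. Neither gene's groups overlapped, and Klf2 fell by 1.56 ± 0.07 (2.95-fold, adjusted p = 9.21e-05) and Klf6 by 1.12 ± 0.06 (2.18-fold, adjusted p = 0.000186). Klf4 fell by 0.84 ± 0.06 and Klf10 by 0.81 ± 0.08. Klf7 (-0.77) and Klf13 (-0.53) also kept their call without the block, and Klf11 (-0.66, unblocked adjusted p = 0.0749), Klf3 (-0.57, unblocked adjusted p = 0.118) and Klf12 (-0.32, unblocked adjusted p = 0.241) did not. Klf14 was the higher one (0.49 ± 0.05, unblocked adjusted p = 0.122), and Klf5, Klf8, Klf9, Klf16 and Klf17 were not called. The family's summed signal was 19.8 to 25 in WT and 10.9 to 13.3 in CD41-KO arrays. Klf2 (-1.96) and Klf6 (-1.24) were lower at 2 months as well, whereas Klf1 was not called there (0.25).

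Immediate early genes, which are switched on within minutes of a signal or of handling, were lower in part. Of 27 tested, 11 were called lower (40.7%) and 1 higher, but 3 and 0 without the block. Dusp1, a phosphatase that ends MAP kinase signalling, stood at 2.82, 2.58 and 2.80 in WT and at 1.99, 1.74 and 1.85 in CD41-KO arrays and fell by 0.87 ± 0.06 (adjusted p = 0.000284). Its groups did not overlap. The AP-1 subunits Fosb (-0.70 ± 0.06, unblocked adjusted p = 0.11), Fos (-0.65 ± 0.06, unblocked adjusted p = 0.0518) and Jun (-0.60 ± 0.09, unblocked adjusted p = 0.0816) were lower with the block alone. Dusp2 was the higher member (0.69 ± 0.06, unblocked adjusted p = 0.0755), and Egr1 was not called (-0.13, adjusted p = 0.264). At 2 months 21 of the 27 were called lower, against 2401 of the 18110 genes named through RefSeq.

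Most histone genes were lower, and cell cycle genes were called lower more often than higher. Of 13 histone genes tested, 11 were called lower (84.6%) and 7 of those without the block, with a median difference of -0.49. H3c14 stood at 3.82, 3.34 and 3.67 in WT and at 2.63, 2.11 and 2.50 in CD41-KO arrays, and it fell by 1.19 ± 0.06 (2.29-fold, adjusted p = 9.21e-05). H2ac4 fell by 1.05 ± 0.07, H4c3 by 0.95 ± 0.07 and H2bc4 by 0.86 ± 0.07. The histone gene copies are alike in sequence, so their signals may not be independent. Of 41 cell cycle genes, 17 were called lower (41.5%) and 3 higher, but 3 and 0 without the block. Those called in both fits were Mcm5, a subunit of the replicative helicase (-0.80 ± 0.07), Ccnd1, the cyclin that takes cells out of G1 (-0.79 ± 0.10), and Pcna, the polymerase clamp (-0.63 ± 0.06). The proliferation marker Mki67 was at -0.45 ± 0.06 (unblocked adjusted p = 0.148). At 2 months the same list ran the other way, with 21 called higher, 1 lower and a median of 0.38. RefSeq-named genes also leaned higher at that age, with 4747 of 18110 called higher and 2401 lower. Pcna and Mki67 differed between ages by -1.12 and -0.91. Of 24 genes of quiescence, 4 were called higher and 7 lower, with 1 and 2 without the block. The inhibitor Cdkn1b fell by 0.81 ± 0.07 (adjusted p = 0.00063), and the antiproliferative gene Tob1 fell by 1.52 ± 0.14 (at least 1.47-fold, being not well above background in CD41-KO arrays). Cdkn1c, which marks dormant stem cells, was at 0.55 ± 0.07 (unblocked adjusted p = 0.12).

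The heat shock and unfolded protein genes had 18 of 27 members called lower (66.7%), 8 of them without the block, and 0 higher. Atf4, the transcription factor of the integrated stress response, stood at 3.18, 2.74 and 2.92 in WT and at 2.29, 1.81 and 2.14 in CD41-KO arrays. It fell by 0.87 ± 0.06 (adjusted p = 0.000332), with no overlap, while another probe of the gene gave -0.1. Sel1l, which carries misfolded proteins out of the endoplasmic reticulum, fell by 0.89 ± 0.07, Dnajb9 by 0.76 ± 0.07, and Hsf1, the main heat shock factor, by 0.72 ± 0.08. Another probe of Dnajb9 gave -0.08. The differences in genes of basic metabolism were smaller and rested on the block. Of 41 genes of oxidative phosphorylation, 15 were called lower and 1 higher, and 0 in either direction without the block (median -0.13). Of 42 ribosomal protein genes, 14 were called lower and 0 higher, and again 0 without the block (median -0.13). At 2 months both lists lay the other way, with 31 and 14 members called higher and 0 lower. Higher calls were also the more common ones among RefSeq-named genes at that age (4747 of 18110 higher, 2401 lower). The ribosomal protein list lay nearer to that background than the list of oxidative phosphorylation.

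The transcription factors that specify blood lineages were called lower more often than higher. Of 30 tested, 12 were called lower (40.0%) and 4 higher, with 2 and 1 without the block. Runx1, without which no definitive stem cells form, stood at -1.16, -1.42 and -0.85 in WT and at -2.57, -2.49 and -2.36 in CD41-KO arrays. The groups were apart and Runx1 fell by 1.33 ± 0.09 (adjusted p = 0.000358) with its brightest probe, while another probe of the gene gave -0.32. Fli1 stood at -0.02, -0.52 and -0.13 against -1.11, -1.55 and -0.92. Spi1, which encodes PU.1, was lower with the block alone (-0.61 ± 0.11, unblocked adjusted p = 0.11). Genes in which LT-HSCs are rich were about evenly split: of 40 tested, 10 were called higher and 9 lower (22.5%), with 3 and 1 without the block and a median of 0. Procr, the endothelial protein C receptor used to isolate stem cells, stood at 1.16, 0.81 and 0.98 in WT and at 1.84, 1.66 and 1.85 in CD41-KO arrays. It rose by 0.80 ± 0.08 (1.74-fold, adjusted p = 0.000783), and Mycn rose by 0.69 ± 0.08. Hoxa9 fell by 0.76 ± 0.09 (adjusted p = 0.00133), and Bmi1 (-0.47 ± 0.09, unblocked adjusted p = 0.194) and Hlf (-0.44 ± 0.06, unblocked adjusted p = 0.0885) were lower with the block alone.

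The genes of the sort gate were compared as well, though RNA levels cannot check a sort made on surface proteins. Slamf1, which encodes CD150, stood at -2.61, -2.67 and -2.48 in WT and at -2.32, -3.05 and -2.38 in CD41-KO arrays, which overlapped, with a difference of 0.00 ± 0.19. Kit stood at 1.94, 1.68 and 1.79 against 1.54, 1.32 and 1.42 (-0.38 ± 0.05, unblocked adjusted p = 0.153). Ly6a, the Sca-1 gene, was slightly higher (0.30 ± 0.05, unblocked adjusted p = 0.136), and so was Cd48, whose product the gate removes (0.41 ± 0.11, unblocked adjusted p = 0.279). All of these probes were well above background on every array of both genotypes at 12 months, Cd48 included. Flt3, which multipotent progenitors carry, was not called (0.36, adjusted p = 0.153), and its 3 probes gave from -0.29 to 0.36. Of 24 multipotent progenitor genes 2 were called higher and 6 lower, with 0 and 2 without the block.

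Of 41 genes known to change with stem cell age, 12 were called higher (29.3%) and 7 lower (17.1%), with 4 and 1 without the block. The share lower was near that of RefSeq-named genes (18.7%), and the share higher was above theirs (12.7%). Zg16 rose by 0.79 ± 0.09 and Nupr1 by 0.47 ± 0.07, both also called without the block, and Runx1t1 fell by 1.44 ± 0.10.

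Markers of marrow stroma were called higher more often than lower. Cxcl12, the chemokine with which stromal cells hold stem cells in the niche, stood at -2.64, -2.27 and -2.60 in WT and at -0.78, -0.88 and -0.83 in CD41-KO arrays. The groups were clearly apart, and Cxcl12 rose by 1.67 ± 0.11 (3.18-fold, adjusted p = 0.000284), against -0.29 at 2 months, where it was not called. Sparc, a matrix protein, rose by 1.05 ± 0.14, and Lepr, the leptin receptor of niche cells, by 0.68 ± 0.06, though 3 probes of Lepr gave from -0.19 to 0.68. Another probe of Sparc gave 0.36. Col1a2, a collagen, fell by 0.50 ± 0.07. Of the 10 stromal genes tested, 5 were called higher and 1 lower, with 3 and 1 without the block. Pdgfra, Pdgfrb, Col1a1 and Igfbp5 were not tested, as none had a probe well above background on all arrays of a group. At 12 months Pdgfrb, Col1a1 and Igfbp5 were well above background on at most 2 arrays, and Pdgfra on 0. The summed signal of the list was 5.4 to 5.74 in WT and 5.18 to 6.11 in CD41-KO arrays, which overlapped, and the part of stromal cells in the result was not tested.

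Of 16 neutrophil genes, 4 were called higher and 0 lower, with 2 and 0 without the block. Ltf, the granule protein lactoferrin, rose by 1.26 ± 0.10 (adjusted p = 0.000512), and Fcnb rose by 0.56 ± 0.08. Camp (0.58 ± 0.07, unblocked adjusted p = 0.0762) was called with the block alone, and Mpo, the myeloperoxidase of early granulocytes, was not called (0.04, adjusted p = 0.84), while its other probe gave -1.93. Of 17 mast cell and basophil genes, 7 were called lower (41.2%) and 2 higher, with 2 and 0 without the block. The 2 higher ones were Cpa3 (0.39) and Mcpt4 (0.32), both mast cell protease genes and called with the block alone. Cd200r3, an activating receptor of these cells, fell by 1.41 ± 0.16 (adjusted p = 0.00156). It was also lower at 2 months (-2.73) and lies in a stretch of chromosome 16 described below. Hdc, which makes histamine, stood at -2.86, -2.07 and -2.97 against -3.79, -3.45 and -3.80 and fell by 1.05 ± 0.27 (adjusted p = 0.0245). The summed signal of neutrophil genes was 245 to 309 in WT and 215 to 327 in CD41-KO arrays, and that of mast cell and basophil genes was 19.8 to 22.7 and 17 to 19.6. The part of such cells in these differences was not tested.

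Signalling and lineage lists held single genes with larger differences. Of 25 genes of NF-kB and inflammation, 5 were called lower and 3 higher, with 2 and 0 without the block. Its subunit Rel fell by 1.32 ± 0.09 (adjusted p = 0.000328) and Tnfaip3, which encodes the inhibitor A20, by 1.22 ± 0.09 (adjusted p = 0.000421). Notch2 stood at 2.16, 1.70 and 1.98 in WT and at 1.12, 0.60 and 0.84 in CD41-KO arrays and fell by 1.09 ± 0.07 (adjusted p = 0.000262), in a list of 25 Wnt and Notch genes with 6 lower and 3 higher (2 and 0 without the block). Another probe of Notch2 gave -0.12. The clock gene Per2 fell by 1.05 ± 0.11 (5 of 17 clock genes lower and 1 higher, with 1 and 0 without the block). Interferon genes had 8 of 36 lower (22.2%) and 4 higher (11.1%), near the shares of RefSeq-named genes (18.7% and 12.7%). Oasl2 (-0.95 ± 0.06) and Irgm2 (-0.95 ± 0.10) were the 2 that kept their call without the block. Ctss, the cathepsin of macrophages, fell by 1.60 ± 0.16 (adjusted p = 0.00101), in a list of 18 macrophage and monocyte genes with 2 lower and 0 higher (1 and 0 without the block). Rag2, the recombinase subunit of lymphoid cells, rose by 0.93 ± 0.10 with its brightest probe, while another probe gave 0.16. Sox4 fell by 0.78 ± 0.07 with its brightest probe, while its 3 probes gave from -0.78 to 0.24. Of 17 lymphoid progenitor genes 1 was called higher and 4 lower, with 1 and 1 without the block.

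The other lists held both directions, and fewer of their members were called without the block. Of 34 genes of extracellular matrix and adhesion, 8 were called higher and 9 lower (2 and 4 without the block), with Selplg, the selectin ligand of leukocytes, falling by 0.77 ± 0.15 and N-cadherin (Cdh2) by 0.59 ± 0.07, and Emilin2 rising by 0.64 ± 0.10. Another probe of Cdh2 gave -0.05. Of 20 antigen presentation genes, 6 were called higher and 2 lower (0 and 1 without the block), and B2m, the light chain of class I molecules, fell by 0.73 ± 0.08. Of 25 genes of the TGF-beta and BMP pathways, 3 were called higher and 7 lower (0 and 2 without the block), with its repressor Ski falling by 0.64 ± 0.07. Of 21 apoptosis genes, 3 were called higher and 7 lower (0 and 2 without the block), with the death agonist Bid falling by 0.83 ± 0.06. The caspase-8 inhibitor Cflar fell by 0.75 ± 0.06 with its brightest probe, while its 3 probes gave from -0.75 to 0.43. Of 34 cytokine and growth factor receptors, 5 were called higher and 10 lower (1 and 1 without the block), and Igf2r fell by 0.58 ± 0.05. Of 21 arachidonate genes, 1 was called higher and 7 lower (1 and 3 without the block), with Ptgdr2, a prostaglandin D2 receptor, falling by 0.89 ± 0.07. Of 14 genes of sphingosine phosphate and lipid mediators, 3 were called higher and 2 lower (1 and 0 without the block), and S1pr3 rose by 0.95 ± 0.14. In these lists the medians stayed between -0.23 and 0.08. Their counts are to be read beside the shares of RefSeq-named genes, 12.7% higher and 18.7% lower.

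Coagulation genes (4 of 27 higher, 6 lower), p53 and DNA damage genes (3 and 5 of 30), glycolysis and hypoxia genes (3 and 2 of 28), endothelial markers (3 and 1 of 11) and T and NK cell markers (2 and 1 of 12) had medians between -0.05 and 0.15. Without the block 2 and 1 of the coagulation genes, 1 and 0 of the p53 genes, 1 and 0 of the T and NK cell markers and 0 of the other lists were called. Fgb, the fibrinogen beta chain, rose by 0.61 ± 0.06, Sesn1 by 0.55 ± 0.10 and Cd3d, a T cell receptor subunit, by 0.93 ± 0.12.

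Across all 42 lists, medians ran from -0.55 for the Krüppel-like factors to 0.32 for stroma, and 31 lists had more members lower than higher. Among the 18110 genes named through RefSeq, the shares were 12.7% higher and 18.7% lower, which is the closer background for these lists.

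**Figure D3:**
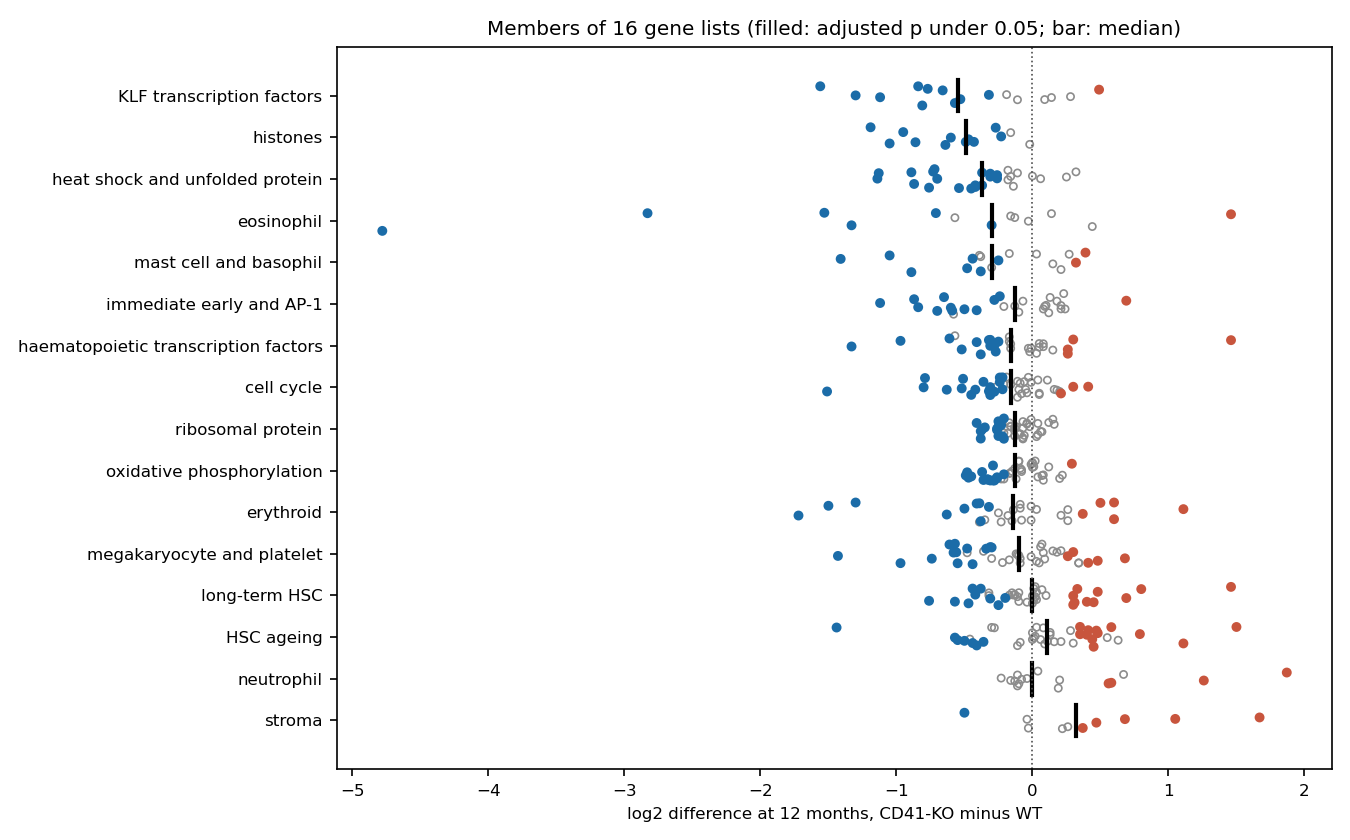
Each point is 1 tested member of a gene list, placed by its CD41-KO minus WT difference at 12 months (log2), with filled points for an adjusted p under 0.05 (red higher, blue lower) and a black bar at the median of the list. Krüppel-like factors and histones lie furthest to the left, with medians of -0.55 and -0.49, the eosinophil list has its long tail on the same side, and stroma lies to the right with a median of 0.32.

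The largest increase of a gene named through RefSeq was that of Gdpd3, a lysophospholipase D. It stood at -4.70, -4.36 and -5.09 in WT, where 1 of 3 arrays was well above background, and at 0.93, 0.64 and 0.78 in CD41-KO arrays. The difference was 5.50 ± 0.39 (45.2-fold, adjusted p = 0.000358), and it was as large at 2 months (5.54). The probe, at chr7:133914520-133914693 (mm9), is shown because this gene and Ccdc54 separated the genotypes at both ages.
Gdpd3 probe: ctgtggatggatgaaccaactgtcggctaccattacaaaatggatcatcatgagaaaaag
Ccdc54 probe: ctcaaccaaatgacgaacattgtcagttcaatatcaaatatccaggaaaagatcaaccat

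Scpep1, a serine carboxypeptidase, stood at -3.21, -3.16 and -3.10 in WT and at -1.15, -1.23 and -1.28 in CD41-KO arrays. The spread within groups was small and Scpep1 rose by 1.94 ± 0.07 (3.83-fold, adjusted p = 2.63e-05), against 2.40 at 2 months. Kif2b, a kinesin of the mitotic spindle, rose by 2.08 ± 0.23 and Nxpe5 by 1.71 ± 0.14, both well above background on all arrays. For most of the other genes among the 12 highest no WT array was well above background, so the increase is a bound, taken against the faintest signal that counts as above background: at least 2.53-fold for Insm1, a neuroendocrine zinc finger gene, 2.06-fold for Skint8, 1.83-fold for Retnlg (unblocked adjusted p = 0.0915), 1.77-fold for Etnppl, 1.54-fold for Resp18, 1.32-fold for Ror2 and 1.29-fold for Ankrd63. For Arhgef17 (1.82) no bound could be given.

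Among the 12 lowest, Ccdc54, a coiled-coil gene, had the smallest spread. It stood at 1.44, 1.14 and 1.29 in WT and at -1.46, -1.89 and -1.91 in CD41-KO arrays, and it fell by 3.05 ± 0.07 (8.26-fold, adjusted p = 3.59e-06). P2rx5, an ATP-gated ion channel, stood at -0.40, -0.18 and -0.47 against -4.22, -2.96 and -4.07 and fell by 3.40 ± 0.21 (10.5-fold, adjusted p = 0.000282). Cd200r2, an activating receptor of the CD200R family, stood at 0.79, 0.56 and 0.69 against -1.96, -1.47 and -2.04 and fell by 2.50 ± 0.19 (5.67-fold, adjusted p = 0.000423). None of these groups overlapped, and all 3 genes were lower at 2 months too (-2.43 for Ccdc54 and -2.44 for Cd200r2). Dhrs7c fell by 2.66 ± 0.34 and Csta2 by 2.68 ± 0.35. For H2bu2, Kbtbd7, Phlda2 and Cd200r4 no CD41-KO array was well above background, which bounds their decreases at 2.76-, 2.14-, 1.97- and 1.42-fold or more. Ear6, Prg2 and Jchain, described above, complete this end.

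Genes that differed at least 2-fold in the same direction at both ages lay close together on the chromosomes in several places. There were 165 genes called at 12 months that differed at least 2-fold in the same direction at both ages. Of these 162 had a mapped position, 93 higher and 69 lower. They made up 0.492% of all mapped genes tested, but 1.56% on chromosome 16, 1.28% on chromosome 11 and 1.11% on chromosome 13. Joining such genes across gaps of up to 2 Mb gave 6 stretches of at least 5 genes, a rule set after the values were seen, so the stretches are described without a test. The genes counted include features without a RefSeq name, and some of these share a locus.

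On chromosome 16, the stretch chr16:44804354-45984108 (mm9) held 8 such genes of 28 tested, 6 lower and 2 higher. It includes Cd200r4, Cd200r2 and Cd200r3, neighbouring genes of the CD200R receptor family, which were lower. Another of the lower members is an unnamed feature also described as CD200 receptor 4, so the 8 may not be separate genes. The sizes were not always alike at the 2 ages: Cd200r3 differed between them by 1.33 (adjusted p = 0.00651), and Cd200r4 was not called at 2 months (adjusted p = 0.139). It also includes a feature named as predicted gene Gm5484, which stood at -3.58, -3.62 and -3.25 in WT and at 0.70, 0.36 and 0.78 in CD41-KO arrays and rose by 4.10 ± 0.09. Both directions thus occur within 1.18 Mb. A second stretch, chr16:48874468-50590774, held 5 of 19, with Retnlg higher, Ccdc54 lower and 1.72 Mb between its ends. On chromosome 11, the sequence from 58259790 to 59011363 held 8 of 49, with the olfactory receptor gene Olfr332 higher (1.93 ± 0.07) and the histone gene H2bu2 lower. A longer one, chr11:67629444-72986187, held 5 of 207, among them Dhrs7c and P2rx5, both lower. Neither of the stretches on chromosome 11 includes Itga2b. On chromosome 13, all 9 such features of 21 tested in chr13:65588748-66892654 were higher. They are not 9 separate genes: none was named through RefSeq, and 2 are the opposite strands of the same interval. The interval of another lies within that of its neighbour. The sixth, chr9:37663278-38685569, held 5 olfactory receptor genes of 44 tested, 2 higher and 3 lower.

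**Figure D4:**
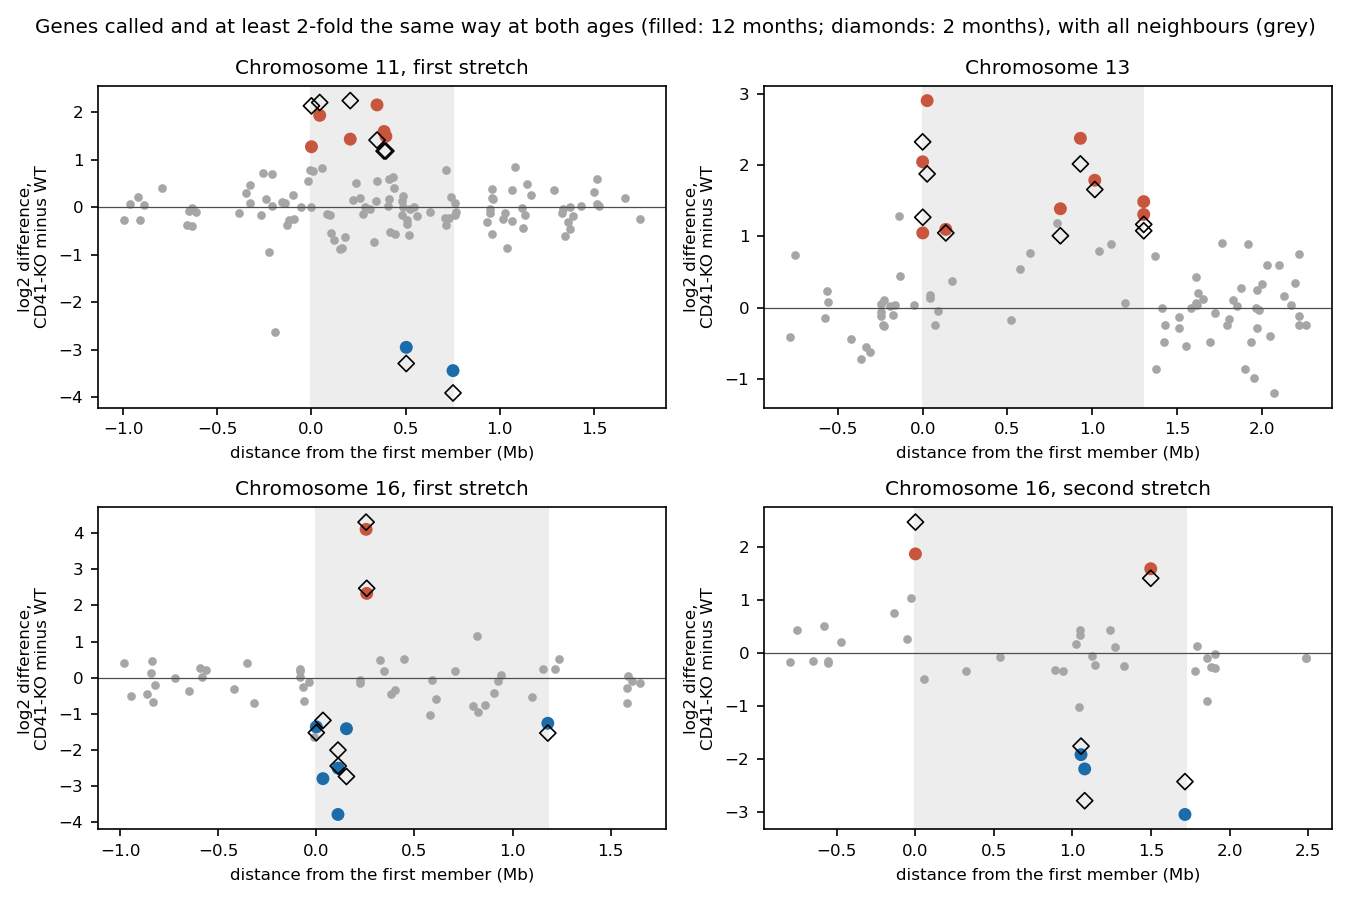
Each panel is 1 stretch of a chromosome, with the distance from its first member in Mb on the horizontal axis and the CD41-KO minus WT difference (log2) on the vertical axis. Filled circles (12 months) and diamonds (2 months) are genes at least 2-fold different in the same direction at both ages, and grey points are their tested neighbours at 12 months, most of which lie near 0; all members are higher in the chromosome 13 panel, and both directions occur in the chromosome 11 and 16 panels.

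The genotype difference at 12 months was set beside that of young cells. Both comparisons were fitted together with separate WT arrays, and the difference between ages was tested in the model. It was called for 12284 genes (36.6%), 5183 with a larger and 7101 with a smaller value at 12 months, but for 3250 without the block. Of genes called at both ages, 2186 had the same direction and 2601 the opposite one. Of the 4595 and 5265 genes called at 12 months, 6098 in all were also called for the difference between ages. Among the genes named here, Prg2, Epx, Ear6, Klf1, Jchain and Cxcl12 differed at 12 months and were not called at 2 months, and for each of them the difference between ages was called with the block. Gdpd3, P2rx5, Cd200r2, Dhrs7c, Csta2, H2bu2, Klf6 and Runx1t1 differed in the same direction at both ages, with no called difference between ages. Myl10, a myosin light chain gene, reversed: it stood at -0.55, -0.60 and -0.46 in WT and at -2.38, -2.44 and -2.29 in CD41-KO arrays at 12 months and fell by 1.83 ± 0.12, while it was higher by 2.16 at 2 months.

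Sex-linked genes differed widely between the ages, and these limit what the 2-month arrays can show. Xist, the RNA of the inactive X chromosome, stood at 5.18, 4.63 and 4.83 in WT and at 4.83, 4.27 and 4.57 in CD41-KO arrays at 12 months (-0.33 ± 0.08, unblocked adjusted p = 0.411), but differed by 7.57 at 2 months. The Y-linked genes Ddx3y, Uty, Ssty1, Ssty2 and Rbmy were not called at 12 months. Of 5 listed sex-linked genes, 1 was called lower (Xist) and 1 higher, with 0 in either direction without the block. The higher one was the Y-linked gene Eif2s3y (0.35). At 2 months sex and genotype cannot be told apart in these arrays, whereas at 12 months both groups had a high Xist level.

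**Figure D5:**
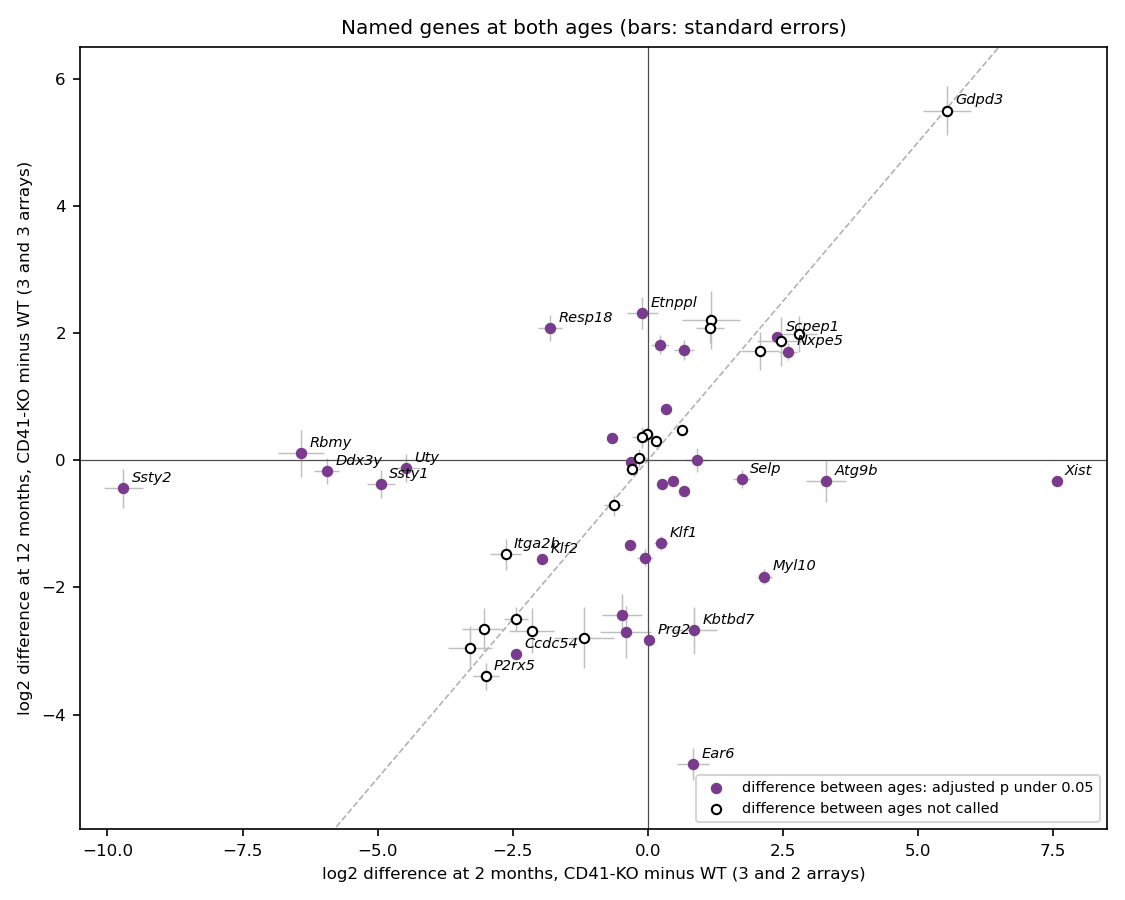
Each point is a named gene, with its CD41-KO minus WT difference at 2 months on the horizontal axis and at 12 months on the vertical axis (log2, bars are standard errors). Filled points had a called difference between the ages and lie off the dashed line of equal differences; Prg2 and Ear6 lie near 0 on the horizontal axis and low on the vertical one, and Gdpd3 lies on the line.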

How the data were processed

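RNA levels were measured with Agilent one-colour arrays in sorted mouse LT-HSCs, and 11 of the 17 deposited arrays entered the fit (the 6 at 12 months and 5 at 2 months). The values of the other 6 arrays, of a CD41 sort, were not used. Their files served for probe descriptions only, since they describe the immunoglobulin probes that the LT-HSC files leave unnamed. Per the labels' protocols, RNA of the sorted cells was amplified as a whole transcriptome before labelling, which can distort ratios. Per the file headers, the intensities the authors deposited came from Agilent Feature Extraction, with the background subtracted within each array, no scaling between arrays, and probes placed on mm9. The authors also deposited log2 values, used as an alternative. They correlated at 0.999 or more with normexp-corrected scanner values, had medians of 8.07 to 8.08 on each array and appear uncentred, and their making is not stated in the labels or headers.

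Spots marked as outliers (104 to 173 of 59305 an array) were left out. Each array's intensities were scaled to its 75th percentile (451.3 to 796.8) before log2. Between 82.7% and 93.3% of spots were well above background and 0 were saturated. Probes well above background throughout any 1 of the 4 groups were kept (50417 of 55681), and a gene was its brightest kept probe. Names came from accessions matched to RefSeq (GRCm38.p6) for 26300 probes and from the files otherwise. Exons and UTRs under the probes were not analysed, as no genome sequence was used. Summed signals of a list are sums of linear relative intensities.

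The test was limma's (version 3.58.1, R 4.3.3, two-sided, eBayes, 5 residual degrees of freedom), with a coefficient for each group and the replicate number as a block, Benjamini-Hochberg adjustment over all genes and a threshold of 0.05. Each replicate number lay on its own slide and scan. Deviations from the group means of same-numbered WT and CD41-KO arrays correlated at 0.55, 0.69 and 0.35, against at most 0.06 for other numbers. Such deviations sum to 0 within a group, so positive values for same numbers lower those for other numbers. Part of this contrast is thus built in. Replicates of a group correlated at 0.979 to 0.987 and 0 arrays were identical. The fit was tested on simulated data.

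The text names Itga2b and Itgb3, the 12 highest and 12 lowest called RefSeq-named genes with 3 concordant pairs and no overlap (no predicted genes or chemoreceptors), members of 42 gene lists from the 4 called ones of smallest p in each direction (not all are named), a set of 20 further genes, and the 5 genes at each end of the difference between ages. Other genes were chosen after their values were seen: the immunoglobulin features, H60a, the positional stretches with their unlisted genes, the remaining eosinophil and Krüppel-like factor genes, and Bmi1, Egr1, Fos, Hba-a2, Hdc, Hsf1, Jun, Mki67, Nupr1 and Selplg. The comparison and the lists were chosen with earlier results of these data known. Of 922 listed genes 911 were on the array, and some genes are not reported here. Further tools were numpy 2.4.6, pandas 2.3.3, matplotlib 3.10.9, statmod 1.5.0 (random block) and data.table (version 1.17.8). Alternatives were other blocks, normalizations, background corrections, filters, probe choices and left-out arrays.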

Additional observations from a re-analysis of the deposited data

Results flagged for a closer look

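For each of the genes below the genotype difference at 12 months, CD41-KO minus WT, differed from that at 2 months in the model (adjusted p under 0.05 with the replicate block, as for 36.6% of all genes). The values are the 12-month minus the 2-month difference on the log2 scale. Among sex-linked genes they were -7.89 for Xist, 9.26 for Ssty2, 6.52 for Rbmy, 5.78 for Ddx3y, 4.55 for Ssty1 and 4.34 for Uty, and sex and genotype cannot be told apart at 2 months.

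Among genes of eosinophils and plasma cells the values were -5.62 for Ear6, -2.85 for Prg2, -1.48 for Epx, -1.01 for Ear2, 0.28 for Ear1 and -1.95 for Jchain. Among erythroid and platelet genes they were -1.55 for Klf1, -0.79 for Gata1, -1.14 for Pf4 and -2.05 for Selp. Itgb3, the partner of CD41, gave 1.02. Among stem cell genes the values were 0.47 for Procr, -0.65 for Kit and -0.91 for Slamf1, and Klf2 gave 0.40.

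The remaining genes were among the highest or lowest of either comparison. Larger values at 12 months were found for Resp18 (3.89), Etnppl (2.42), Arhgef17 (1.59) and Ankrd63 (1.06). Smaller values were found for Myl10 (-3.99), Atg9b (-3.63), Kbtbd7 (-3.53), Phlda2 (-2.29), Nxpe5 (-0.89), Ccdc54 (-0.62) and Scpep1 (-0.47). Atg9b was not called at 12 months (-0.33, adjusted p = 0.477) and was higher in CD41-KO cells at 2 months (3.30).

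Without the replicate block 11 of these differences between ages were not called: those of Ccdc54 (adjusted p = 0.161), Kit (0.0747), Ankrd63 (0.0963), Scpep1 (0.0931), Procr (0.227), Nxpe5 (0.0746), Jchain (0.0518), Phlda2 (0.121), Klf2 (0.411), Slamf1 (0.114) and Ear1 (0.614).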

How the results depend on the processing

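Of 52 genes named and followed through the alternatives 40 were called, and 28 of these kept their call in every alternative that tested them. None of the 40 reversed. Dropping the replicate block left 878 genes higher, 869 lower and 3250 called for the difference between ages. The 6 arrays at 12 months alone gave 3057 higher and 3173 lower with the block, and 385 and 348 with no replicate block. Called and at least 2-fold were 263 and 296. Leaving out 1 array gave 2735 to 3505 higher and 3297 to 4093 lower. Over all settings the Krüppel-like factors had 3 to 11 members lower, histones 4 to 12, eosinophil genes 4 to 7, heat shock genes 1 to 21 and cell cycle genes 0 to 19, and stroma had 3 to 5 higher. Genes near 0 changed sign. Slamf1 was -0.01 with quantile normalization, -0.01 with the array median, -0.06 with normexp, -0.02 in the authors' deposited table, and -0.15 to 0.20 with 1 array left out. Mpo was -0.95 as the mean of its probes and -0.09 to 0.19 with 1 array left out. Ddx3y was 0.02 in the authors' deposited table and -0.45 to 0.06 with 1 array left out, Rbmy -0.01 with array weights and -0.12 to 0.42, and Uty -0.44 to 0.09. The cause was not tested. Faint signal on 1 side limits the folds given as bounds.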

Other observations

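H60a, a ligand of the natural killer cell receptor NKG2D that is known to be present in some mouse strains and absent in others, was chosen after its value was seen, and its probe has no mapped position in the files. H60a stood at -6.61, -7.02 and -7.04 in WT arrays, where no array was well above background, and at -0.62, -0.97 and -0.81 in CD41-KO arrays, an increase of at least 14.3-fold (adjusted p = 0.0022). It was higher by 3.63 at 2 months as well (adjusted p = 0.0188).

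A long intergenic RNA feature on the reverse strand at chr1:64233052-64233111 (mm9) stood at -1.37, -1.89 and -1.77 in WT and at 1.92, 1.55 and 1.71 in CD41-KO arrays, and rose by 3.40 ± 0.06. On chromosome 11, 2610507I01Rik, next to H2bu2 in the stretch described above, was at least 5.48-fold lower in CD41-KO arrays.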
